A study of Mus musculus with 6 samples.

Results

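The genes described here are the Wnt ligands, their receptors and their secreted antagonists, 48 of the 18193 genes measured in cells sorted from the mouse colon. They were selected by gene symbol, as the Wnt, Fzd, Sfrp, Dkk and Rspo families with Frzb, Wif1, Lrp5, Lrp6, Lgr4, Lgr5 and Axin2. This rule was set with earlier results of these data known. Each gene was read from its brightest probe set, by the mean of 6 libraries. All mice were of the strain Mapttm1(EGFP)Klt/J, which carries EGFP at the locus of the microtubule protein tau, and all had received a fluorescent cholera toxin tracer in the celiac ganglion 3 to 4 days before they were killed. Myenteric cells were sorted into EGFP-positive cells, labelled as colonic neurons, and EGFP-negative cells, with 3 libraries of each. Each library pooled 2, 4 or 6 mice, and the labels do not say which. The sources used here give neither age nor sex, nor whether mice carried 1 or 2 copies of the EGFP allele. RNA was hybridised to 1-colour Affymetrix Mouse Genome 430 2.0 arrays.

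Wnt proteins are secreted lipid-modified ligands that bind Frizzled receptors. With the co-receptors Lrp5 and Lrp6 they stabilise beta-catenin, which enters the nucleus and acts with TCF/LEF factors, while other Wnt proteins signal without beta-catenin. R-spondins act through Lgr receptors to keep Frizzled receptors at the cell surface. Secreted Frizzled-related proteins and Wif1 bind Wnt proteins, and some Dkk proteins block the co-receptors. Axin2 is both a target gene and an inhibitor of the pathway. In the gut, Wnt and R-spondin signals from cells beneath the epithelium maintain the epithelial stem cells.

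The labels and the cell markers did not match in every library, so directions below refer to the labels. All levels are on the deposited log2 scale, and 3 values in a row stand for replicates 1, 2 and 3, those labelled EGFP-positive first. Mapt, at whose locus the EGFP lies, read 1.43, 1.32 and 5.55 against 1.44, 1.64 and 1.38. It was thus well above background in EGFP-positive replicate 3 alone, and slightly above it in EGFP-negative replicate 2. Whether the EGFP allele leaves Mapt RNA unchanged is not given in the sources used here, so Mapt need not follow EGFP. Background was set at 1.48, the highest value of the control probe sets for TrpnX, a bacterial transcript. The 10 neuronal markers averaged 3.52, 3.43 and 6.61 against 3.67, 3.71 and 3.78. The 7 measured markers of enteric glia, the supporting cells of the plexus, averaged 6.06, 5.68 and 7.91 against 4.27, 5.36 and 4.93. The 7 macrophage markers averaged 6.73, 3.67 and 2.34 against 8.28, 8.51 and 6.84. Between 6182 and 7621 probe sets read at or above 6 per library, with the fewest in EGFP-negative replicate 1. None of the markers in these 3 lists was below background in all 6 libraries. On arrays of bulk RNA, fewer cells of a type and less RNA per cell cannot be told apart.

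No member passed the test over all genes, and the member with the largest difference was Sfrp5. Over all 18193 genes 0 passed (limma, Benjamini-Hochberg adjusted p under 0.05, 0% of genes), and 893 genes had an unadjusted p under 0.05, which is 4.91%. Of the 48 members, 1 had such an unadjusted p. The lowest adjusted p among the members was 0.986 (limma, Benjamini-Hochberg), that of Sfrp5. With the replicate number as a block, again 0 genes passed (0%), and 4 members, Sfrp5, Lgr4, Sfrp4 and Wnt9a, had an unadjusted p under 0.05, where 7.39% of all genes did. Their lowest adjusted p was then 0.661 (limma, Benjamini-Hochberg). The median log2 difference of the members, EGFP-positive minus EGFP-negative, was -0.04, beside -0.02 over all genes. It was above 0 in 22 members and below 0 in 26. When arrays were centred on a list of ribosomal protein genes, the median of all genes moved by 0.35, and 43 members then lay above 0, as did 89.0% of all genes against 46.4% without that centring. With it the median was 0.31 over the members and 0.33 over all genes.

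Groups did not overlap in 4 members. Sfrp5 and Lgr4 read higher in all 3 libraries labelled EGFP-positive (3.07% of all genes did), and Rspo4 and Wnt9b read lower (6.04% did). Rspo4 and Wnt9b stayed between 1.12 and 1.65, near background, so little can be read from them. With a difference of at least 1 as well, Sfrp5 alone was among the higher genes (0.803% of all genes) and 0 members were among the lower (1.5%). With a difference of at least 0.5, Sfrp5 and Lgr4 were among the higher (1.74%) and 0 members among the lower (2.67%). Sfrp5 and Lgr4 were also the 2 higher members among the 23 above the median gene (3.99% of such genes), where 0 members were lower (5.68%). Single libraries were then left out, with the limits of no overlap and a difference of at least 1 kept. Without EGFP-positive replicate 2, Sfrp5 and Fzd3 were higher (1.51% of all genes) and Sfrp4 was lower (2.00%). Sfrp5, Fzd3 and Lgr4 were higher without EGFP-negative replicate 3 (1.37%). Without EGFP-negative replicate 1, Sfrp5 was higher (1.01%) and Dkk2 was lower (2.86%). Fewer libraries make overlap less likely, and these shares of higher genes all exceed the 0.803% with all 6 libraries. The libraries labelled EGFP-positive exceeded their same-numbered partners in all 3 pairs in 5 members (11.3% of all genes) and lay below them in 8 (16.2%). These shares are close to the background.

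**Figure D1:**
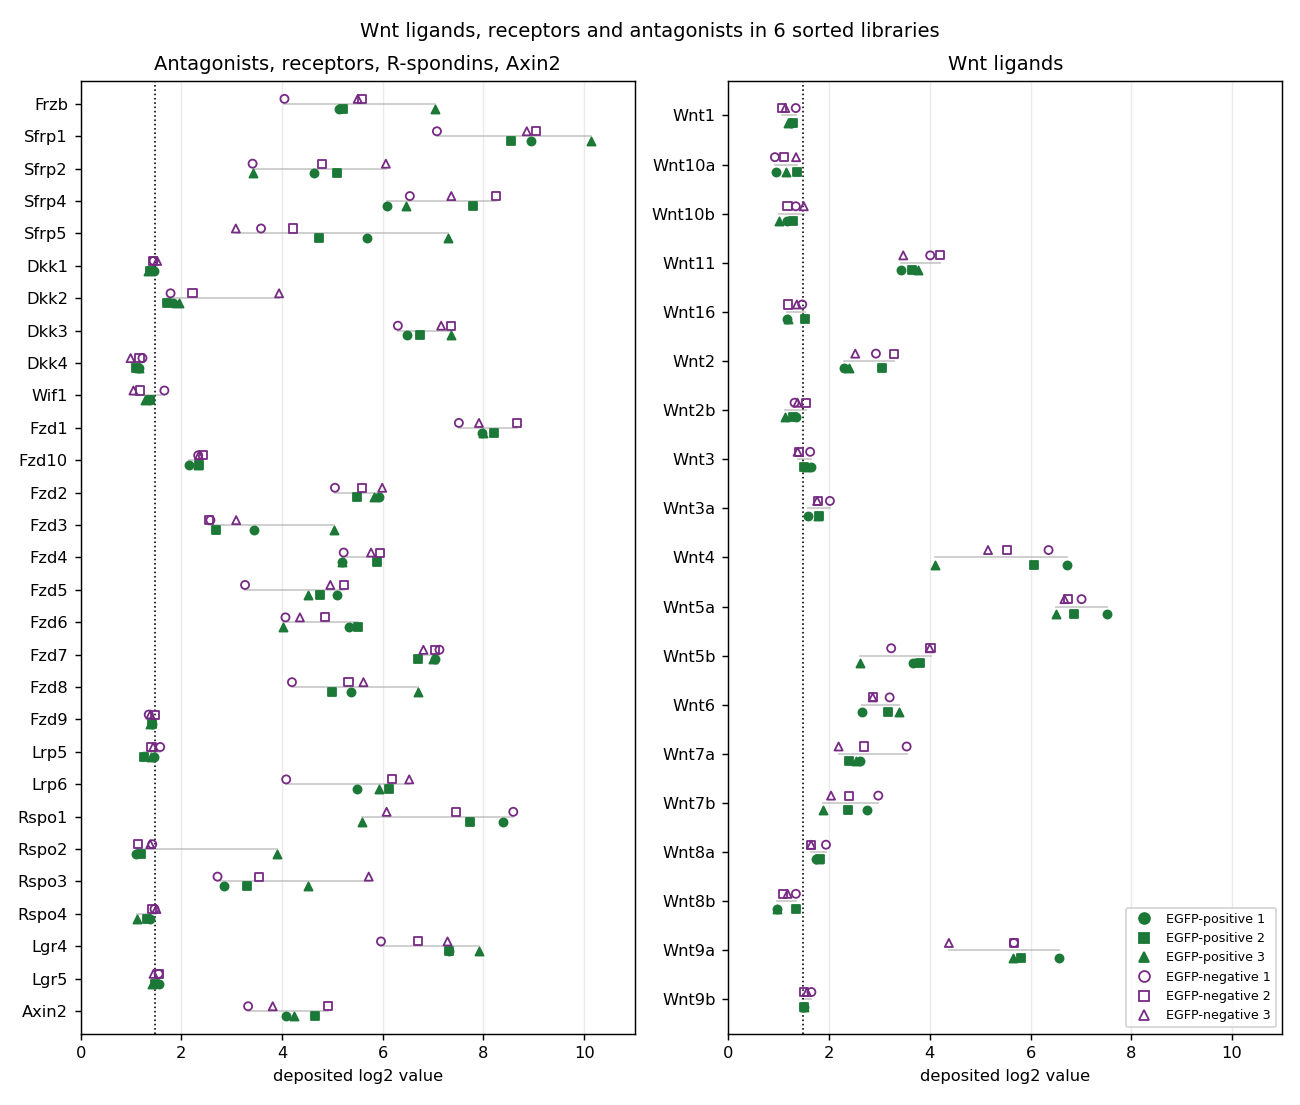
Deposited log2 values (x axis) of the 48 members (rows), with filled symbols for the 3 libraries labelled EGFP-positive and open symbols for the 3 labelled EGFP-negative; circle, square and triangle stand for replicates 1, 2 and 3. The dotted line is the TrpnX background of 1.48, grey lines span the 6 values, and in the row of Sfrp5 the filled and open symbols do not overlap.

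Of the 48 members, 33 were above background in all 6 libraries (67.7% of all genes were), and 5 were below it in all 6, as were 2115 of all 18193 genes. A mean above that of the median gene, 3.30, was reached by 23 members. A level of at least 6 in all 6 libraries was reached by Sfrp1, Sfrp4, Dkk3, Fzd1, Fzd7 and Wnt5a (18.9% of all genes). The brightness of different probe sets does not compare the genes' abundance, and a dim probe set does not show that a gene is silent.

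The promoters of 5 members are printed here. Sfrp5 and Lgr4 did not overlap between groups, and Frzb is of the same family as Sfrp5. Rspo1 and Wnt4 share a pattern across replicate numbers on the probe sets used. Each promoter is 300 bases from RefSeq on GRCm38.p6, 250 before and 50 from an annotated start, given 5′ to 3′ on the gene's strand. Sfrp5 lies at chr19:42202203-42202502, minus strand, Frzb at chr2:80447347-80447646, minus strand, Lgr4 at chr2:109917397-109917696, plus strand, Rspo1 at chr4:124986180-124986479, plus strand and Wnt4 at chr4:137277385-137277684, plus strand. A lone capital marks the annotated start, and the run of capitals in Frzb marks a motif match.
Sfrp5: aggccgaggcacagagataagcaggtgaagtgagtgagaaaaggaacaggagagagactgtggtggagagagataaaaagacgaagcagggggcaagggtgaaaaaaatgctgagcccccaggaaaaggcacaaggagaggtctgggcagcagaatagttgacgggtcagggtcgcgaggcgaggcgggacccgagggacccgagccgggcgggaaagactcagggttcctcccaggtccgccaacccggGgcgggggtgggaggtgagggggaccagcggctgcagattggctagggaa
Frzb: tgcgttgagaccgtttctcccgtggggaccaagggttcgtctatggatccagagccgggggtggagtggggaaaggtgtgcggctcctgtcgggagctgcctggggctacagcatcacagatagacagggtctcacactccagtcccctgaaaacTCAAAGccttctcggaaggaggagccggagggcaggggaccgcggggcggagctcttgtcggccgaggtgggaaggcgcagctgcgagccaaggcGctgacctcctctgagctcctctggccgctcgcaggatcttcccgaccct
Lgr4: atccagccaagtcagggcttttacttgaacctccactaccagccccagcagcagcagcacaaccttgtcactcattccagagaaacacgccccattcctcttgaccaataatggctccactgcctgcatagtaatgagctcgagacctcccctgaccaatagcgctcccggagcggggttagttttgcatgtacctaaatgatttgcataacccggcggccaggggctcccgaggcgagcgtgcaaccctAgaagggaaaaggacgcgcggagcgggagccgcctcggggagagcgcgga
Rspo1: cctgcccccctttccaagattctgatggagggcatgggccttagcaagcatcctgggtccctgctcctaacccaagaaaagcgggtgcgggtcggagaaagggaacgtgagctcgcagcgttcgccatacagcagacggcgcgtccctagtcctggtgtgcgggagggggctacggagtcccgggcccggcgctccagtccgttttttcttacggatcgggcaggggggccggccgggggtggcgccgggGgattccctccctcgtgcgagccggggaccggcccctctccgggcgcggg
Wnt4: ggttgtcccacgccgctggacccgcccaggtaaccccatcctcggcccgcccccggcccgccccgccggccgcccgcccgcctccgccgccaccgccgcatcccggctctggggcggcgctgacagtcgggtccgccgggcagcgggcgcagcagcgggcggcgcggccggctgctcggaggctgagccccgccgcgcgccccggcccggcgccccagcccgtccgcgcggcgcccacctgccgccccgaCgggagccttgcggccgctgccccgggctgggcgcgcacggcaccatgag
Both strands were searched for CTTTGA, a form of the core that TCF/LEF factors recognise, and for CTTTGT, whose reverse complement ACAAAG is also bound by SOX factors. The 2 motifs differ in their last letter, so no run of letters matches both on 1 strand. Among these 5 windows only Frzb held CTTTGA, as its reverse complement from position -95 relative to the start, and none held CTTTGT. RefSeq windows were found for 31 members, 34 windows in all, of which 5 held CTTTGA and 6 held CTTTGT, beside 16.0% and 18.7% of all 32851 windows. CG dinucleotides numbered 15 in Sfrp5, 20 in Frzb, 18 in Lgr4, 29 in Rspo1 and 51 in Wnt4, and the median was 26.5 over the members' windows and 7 over all windows. A match in letters is not evidence of binding.

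The secreted Frizzled-related proteins, which bind Wnt proteins outside the cell, held the highest member difference and 3 of their 5 members had a mean difference above 0. Sfrp5 read 5.68, 4.74 and 7.30 against 3.58, 4.21 and 3.08. All 3 values labelled EGFP-positive lay above all 3 labelled EGFP-negative, with the smallest gap between the libraries numbered 2. The log2 difference was 2.28 (SE 0.70, 95% confidence interval 0.55 to 4.02, unadjusted p = 0.0188 and adjusted p = 0.986, limma with Benjamini-Hochberg). It was 1.59 without EGFP-positive replicate 3 and 3.67 without EGFP-positive replicates 1 and 2, in which Mapt was below background. A second, dimmer Sfrp5 probe set gave 0.49 (SE 0.29). In the same-numbered pairs the Sfrp5 difference was 2.10, 0.53 and 4.22. The glia list did not overlap between the labels either (exact permutation p = 0.1, two-sided, the smallest that 3 against 3 allow), with a summed level of 39.7 to 55.4 in the libraries labelled EGFP-positive and 29.9 to 37.5 in the others and 0 of 7 markers below background in all libraries. The part of glia in the Sfrp5 difference was not tested.

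Sfrp1 read 8.95, 8.54 and 10.13 against 7.08, 9.05 and 8.86. On the probe set used its highest value lay in EGFP-positive replicate 3 and its lowest in EGFP-negative replicate 1, and the groups overlapped. The difference was 0.88 (SE 0.67, adjusted p = 1.00, limma with Benjamini-Hochberg), and it was 0.25 without EGFP-negative replicate 1 and 0.42 without EGFP-positive replicate 3. All 5 Sfrp1 probe sets were above background, and their differences were 0.88, 1.32, 0.42, 0.47 and 2.13. On those with 0.42 and 0.47, EGFP-negative replicate 1 was not the lowest library. With the mean of all probe sets the Sfrp1 groups did not overlap and differed by at least 1 (0.588% of all genes). Frzb, also known as a Frizzled-related protein of cartilage, read 5.13, 5.21 and 7.04 against 4.05, 5.59 and 5.50. Here too EGFP-positive replicate 3 was highest and EGFP-negative replicate 1 lowest, as in the glia list. Its difference of 0.75 (SE 0.68) was 0.12 without EGFP-positive replicate 3 and 0.25 without EGFP-negative replicate 1.

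Sfrp4 and Sfrp2 had mean differences below 0. Sfrp4 read 6.09, 7.78 and 6.47 against 6.54, 8.25 and 7.36. The groups overlapped, but the library labelled EGFP-positive was the lower in all 3 same-numbered pairs, with differences of -0.45, -0.46 and -0.89. The difference of -0.60 had an SE of 0.61 and an unadjusted p of 0.365 (limma), and with the replicate block the unadjusted p was 0.0186 (adjusted p = 0.661, Benjamini-Hochberg). The 8 fibroblast markers averaged 9.60, 9.99 and 9.22 against 9.46, 10.24 and 10.08, with the highest value of each group in replicate 2, as in Sfrp4. The summed level of that list ran from 73.7 to 79.9 in the libraries labelled EGFP-positive and from 75.7 to 82.0 in the others, 0 of 8 markers were below background in all libraries, and their part was not tested. Sfrp2, named after its values were seen, read 4.63, 5.09 and 3.42 against 3.42, 4.79 and 6.06, and its pairs differed in sign.

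Of the Dkk proteins and Wif1, only Dkk3 was above the median gene. Dkk3, a divergent member of the family, read 6.48, 6.73 and 7.36 against 6.30, 7.35 and 7.16. The groups overlapped and the mean difference was -0.08 (SE 0.37), which turned to 0.27 with arrays centred on ribosomal protein genes. A second Dkk3 probe set gave 0.40. Dkk2 read 1.83, 1.72 and 1.96 against 1.79, 2.22 and 3.94. It stood out in EGFP-negative replicate 3 only, and its difference of -0.81 (SE 0.57) was -0.17 without that library. Dkk1, Dkk4 and Wif1 stayed between 0.99 and 1.66.

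Among the 19 Wnt ligands 5 were above the median gene, and none had an unadjusted p under 0.05 without the replicate block. Wnt5a, which in many tissues signals without beta-catenin, read 7.51, 6.87 and 6.49 against 7.01, 6.75 and 6.67. The replicates numbered 1 were the highest of each group, and the difference was 0.15 (SE 0.28), with -0.13 without EGFP-positive replicate 1. Of its 3 probe sets above background, the others gave 0.38 and -0.06. Wnt9a, another ligand, read 6.57, 5.81 and 5.66 against 5.67, 5.67 and 4.38. Its lowest value lay in EGFP-negative replicate 3, and the library labelled EGFP-positive read higher in each pair, with differences of 0.90, 0.13 and 1.28. The difference of 0.77 (SE 0.45) had an unadjusted p of 0.138 (limma), and 0.0473 with the replicate block, and was 0.34 without EGFP-negative replicate 3.

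Wnt4, a ligand needed in kidney and gonad development and named after its values were seen, read 6.72, 6.07 and 4.09 against 6.36, 5.52 and 5.15. Replicate 3 was the lowest of both groups, and the mean difference was -0.05 (SE 0.74). On a second Wnt4 probe set EGFP-negative replicate 2, at 4.64, lay just below EGFP-negative replicate 3, at 4.66. Wnt11 and Wnt5b had mean differences of -0.28 and -0.39, with SEs of 0.22 and 0.40. The other 14 ligands were not above the median gene, and their mean differences lay between -0.33 and 0.10. Among these, Wnt1, Wnt10a and Wnt8b were below background in all 6 libraries. Wnt2b, Wnt3 and Wnt3a, ligands known for their action on intestinal stem cells, read from 1.12 to 2.01.

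Of the 10 Frizzled receptors, 7 were above the median gene and 6 had a mean difference above 0. Fzd1 read 7.97, 8.21 and 7.99 against 7.51, 8.66 and 7.91. The groups overlapped almost fully, and the difference was 0.03 (SE 0.31), a sign that turned with median centring (-0.0084). Fzd7, with values from 6.71 to 7.13, had a difference of -0.08 (SE 0.15) and a 95% confidence interval from -0.46 to 0.30, so a difference as large as 1 lay outside it. Fzd3, a receptor that guides growing axons, read 3.45, 2.69 and 5.02 against 2.58, 2.55 and 3.09. EGFP-positive replicate 3, which also had the highest neuronal and glial list means, held its highest value. The difference was 0.98 (SE 0.61), but 0.33 without that library and 2.28 without EGFP-positive replicates 1 and 2. Its 5 other probe sets were dim and gave between -0.07 and 0.18.

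Fzd8 read 5.37, 5.00 and 6.70 against 4.20, 5.32 and 5.62. It had the high and the low library of Frzb, and its difference was 0.65 (SE 0.58), with 0.62 from a second probe set. Fzd6 read 5.32, 5.50 and 4.03 against 4.07, 4.86 and 4.36. Unlike Fzd3 and Fzd8 it was lowest in EGFP-positive replicate 3, and its difference of 0.52 (SE 0.45) turned to -0.40 without EGFP-positive replicates 1 and 2. Fzd2, not named by rule, had 3 probe sets above background with differences of 0.21, 0.48 and 1.24. Fzd4 gave -0.22 (SE 0.29) and Fzd5 0.31 (SE 0.55), and Fzd9 and Fzd10 stayed between 1.35 and 2.44. Lrp6, a co-receptor, read 5.49, 6.12 and 5.93 against 4.08, 6.19 and 6.53. On this probe set 1 low library, EGFP-negative replicate 1, set the sign of the difference, which was 0.25 (SE 0.67) and -0.51 without that library. A second, dimmer Lrp6 probe set gave 0.49 (SE 0.41), and its lowest value lay in EGFP-negative replicate 3. Lrp5 had 1 probe set, between 1.27 and 1.58.

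**Figure D2:**
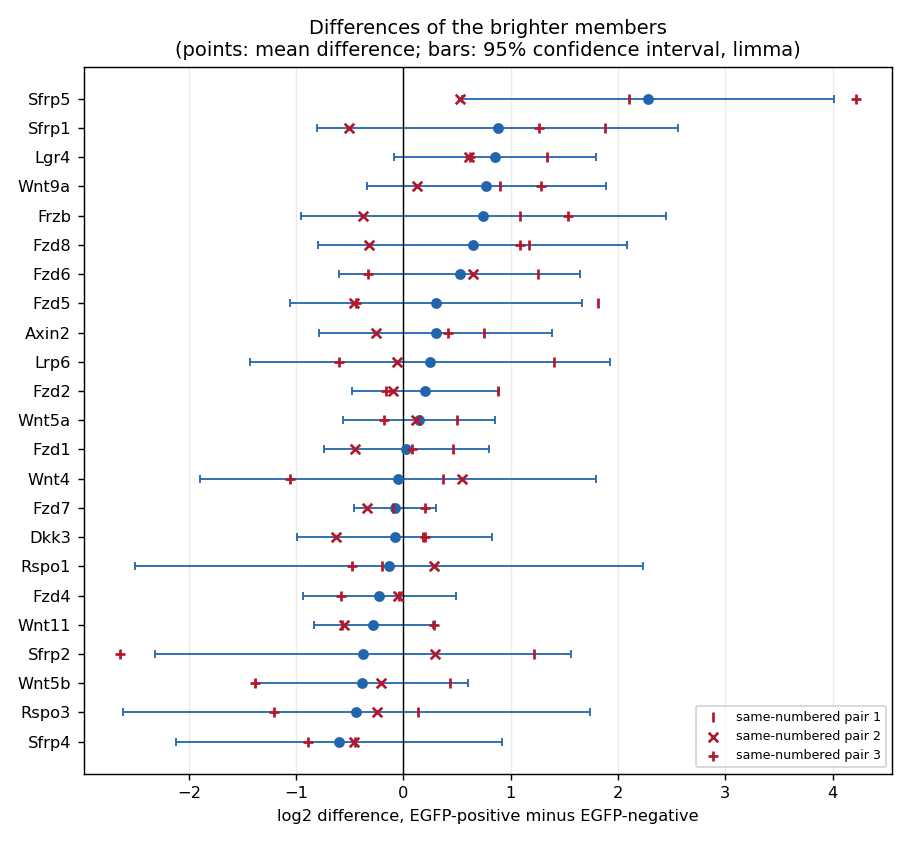
Log2 difference (x axis, EGFP-positive minus EGFP-negative) of the 23 members above the median gene (rows), as the mean difference (point) with its 95% confidence interval from limma (bar) and the 3 same-numbered pairs (marks). The interval of Sfrp5, 0.55 to 4.02, lies above 0 before adjustment over all genes, and those of the other 22 members span 0.

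Among the R-spondins and their receptors, Lgr4 did not overlap between the labels, while Rspo1 differed mainly by replicate number. In Lgr4 the label held 49.6% of the sum of squares of the 6 values and the replicate number 42.5%. Lgr4, an R-spondin receptor found in many tissues, read 7.31, 7.31 and 7.91 against 5.97, 6.70 and 7.29. The groups did not overlap, although EGFP-negative replicate 3, at 7.29, lay just below the lowest library of the other group, at 7.31. The difference was 0.86 (SE 0.38), with an unadjusted p of 0.0671 and an adjusted p of 1.00 (limma, Benjamini-Hochberg). The differences within pairs were 1.34, 0.61 and 0.62, and with the replicate block the unadjusted p was 0.0156 (adjusted p = 0.661). Without EGFP-negative replicate 1 the difference was 0.51. Lgr5, the marker of intestinal stem cells, stayed between 1.41 and 1.56 on its brighter probe set, while the 6 epithelial markers averaged 8.53, 7.86 and 5.31 against 7.02, 7.57 and 6.06.

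Rspo1, a secreted activator of the pathway, read 8.39, 7.74 and 5.59 against 8.59, 7.46 and 6.08. Replicate 3 was the lowest and replicate 1 the highest of both groups, and the mean difference was -0.13 (SE 0.95). Its sign turned with arrays centred on ribosomal protein genes (0.22), without EGFP-positive replicate 3 (0.69) and without EGFP-negative replicate 1 (0.47). Same-numbered libraries differed by -0.20, 0.28 and -0.48. The replicate number held 97.6% of the sum of squares of its 6 values and the label 0.36%. The 6 mesothelial markers, from the cell layer that covers the gut, averaged 9.63, 9.07 and 7.27 against 9.32, 8.67 and 7.56, in the same order by number. Their summed level ran from 43.6 to 57.8 in the libraries labelled EGFP-positive and from 45.3 to 55.9 in the others, with 0 of 6 below background in all libraries. The epithelial and macrophage lists were also lowest in replicate 3 of both labels. The part of mesothelium or of these other cells in the Rspo1 values was not tested.

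At least 80% of the sum of squares went with the replicate number in 5 members, Rspo1, Rspo3, Sfrp4, Wnt4 and Wnt7b, beside 16.5% of all genes. Among the 23 members above the median gene there were 4, all of these but Wnt7b, beside 21.4% of such genes. This measure was chosen after the values were seen. It was 82.8% in Wnt4, 88.4% in Rspo3 and 83.1% in Sfrp4, and its median was 48.7% over the members and 48.8% over all genes. Rspo3, another secreted activator, had the opposite order to Rspo1, at 2.86, 3.30 and 4.52 against 2.72, 3.55 and 5.72. Its replicates numbered 3 were the highest of each group, and its difference was -0.44 (SE 0.87), or 0.43 without EGFP-negative replicate 3. The 6 smooth muscle markers were also highest in the replicates numbered 3, at 9.59, 9.08 and 11.09 against 10.04, 9.41 and 11.30, and their part was not tested. Rspo2, which binds the same receptors, read 1.10, 1.20 and 3.89 against 1.42, 1.14 and 1.38. On the probe set used it was above background in EGFP-positive replicate 3 only. Its difference of 0.75 (SE 0.78) thus rests on that library and has no firm size. A second Rspo2 probe set read 1.31 in that library, below background, and gave a difference of -0.12 (SE 0.11). Rspo4 had 1 probe set, near background.

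**Figure D3:**
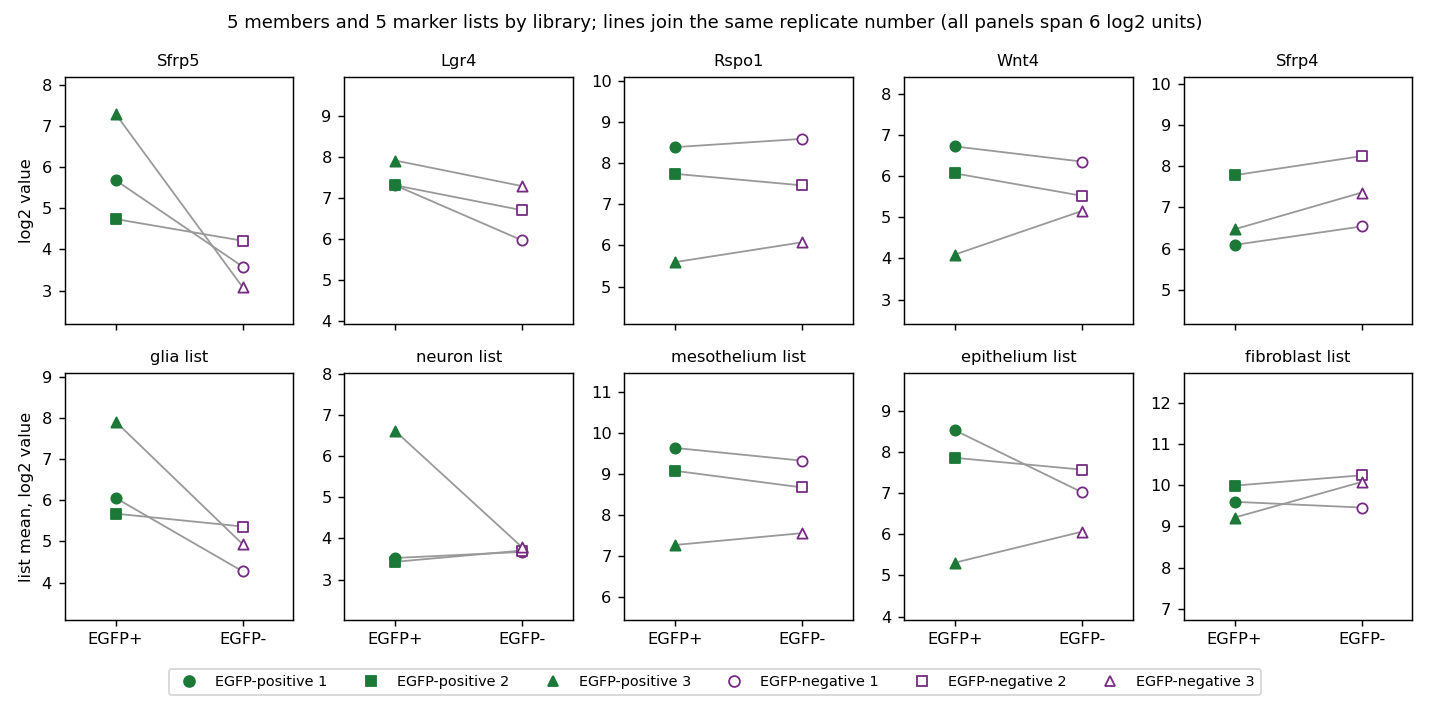
Log2 values of 5 members (top) and list means of 5 marker lists (bottom) in the libraries labelled EGFP-positive (filled) and EGFP-negative (open), with lines that join the same replicate number; each panel spans 6 log2 units. Sfrp5 and the glia list are higher on the EGFP-positive side in all 3 pairs. Rspo1, Wnt4 and both the mesothelium and the epithelium list are lowest in replicate 3 of both labels.

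Axin2, which is switched on by beta-catenin in most tissues, read 4.08, 4.66 and 4.23 against 3.33, 4.92 and 3.82. The replicates numbered 2 were the highest of each group, and the difference was 0.30 (SE 0.44, 95% confidence interval -0.78 to 1.39), or -0.04 without EGFP-negative replicate 1. A second probe set was below background in all 6 libraries.

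Probe sets of one gene did not always give one answer. Of the 48 members, 10 had more than 1 probe set above background in all libraries, and in 4 of these, Dkk3, Fzd4, Wnt4 and Wnt5a, the signs differed. In Sfrp1, Sfrp5, Fzd2, Fzd8, Lrp6 and Wnt6 the probe sets had differences of the same sign.

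**Figure D4:**
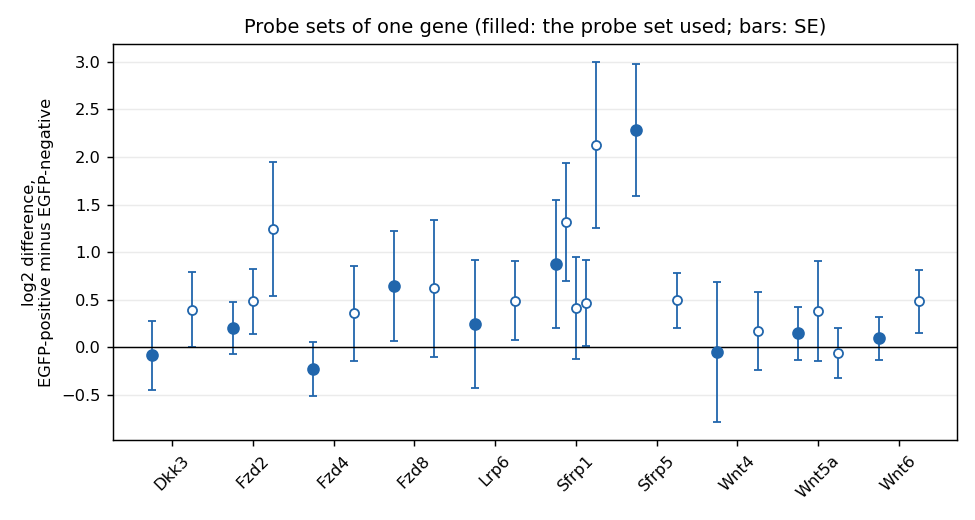
Log2 difference (y axis, EGFP-positive minus EGFP-negative) with its SE for each probe set above background in all 6 libraries, in the 10 members with more than 1 such probe set; filled points are the probe sets used. The 5 probe sets of Sfrp1 run from 0.42 to 2.13, all above 0.

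The rest of the pathway was read from a list of 74 genes, of which 72 were measured. It covered other receptors, ligand secretion, other antagonists, the destruction complex, Dishevelled proteins, TCF/LEF factors, planar cell polarity and target genes. None passed over all genes in either direction (0%), and 5 had an unadjusted p under 0.05 (4.91% of all genes), or 7 with the replicate block (7.39%). The 5 were Sostdc1, Gsk3b, Ccnd1, Id2 and Lef1, each with an adjusted p of at least 0.986 (limma, Benjamini-Hochberg). The 7 were Nkd2, Tle3, Bcl9l, Id2, Gsk3b, Sostdc1 and Jag1, each with an adjusted p of 0.661 (limma with the block, Benjamini-Hochberg). The median difference was 0.09, beside -0.02 over all genes, and 50 of 72 lay above 0. Groups did not overlap in 4 genes with higher values, Sostdc1, Gsk3b, Ccnd1 and Kremen1 (3.07% of all genes), and in Lef1 with lower values (6.04%), and with a difference of at least 1 in 1 (0.803%) and 0 (1.5%).

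Sostdc1, a secreted antagonist of Wnt and BMP signals, read 7.54, 7.04 and 9.21 against 3.74, 6.61 and 5.87. All libraries labelled EGFP-positive lay above the others, and its 2 probe sets gave 2.52 (SE 0.92) and 2.41. It was 1.69 without EGFP-negative replicate 1. Nkd2, an inhibitor that binds Dishevelled, read 5.56, 4.57 and 7.27 against 4.53, 2.97 and 5.35. The groups overlapped, but each pair had a difference above 0, and the difference was 1.51 (SE 0.90). With the replicate block its SE was 0.22 and the unadjusted p was 0.00265 (adjusted p = 0.661, limma with Benjamini-Hochberg). The difference was 0.78 without EGFP-positive replicate 3 and 0.86 without EGFP-negative replicate 2. Jag1, a Notch ligand and reported target of beta-catenin, read 6.09, 6.65 and 7.07 against 4.22, 5.82 and 6.75, with a difference of 1.01 (SE 0.67) and 0.32 without EGFP-negative replicate 1.

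The lowest differences of the list were those of Lef1, Id2 and Porcn. Lef1, a TCF/LEF factor that lymphocytes also make, read 1.44, 1.20 and 0.93 against 1.68, 1.88 and 2.73, so the libraries labelled EGFP-positive were below background. Its difference of -0.91 (SE 0.31) therefore has no firm size. The 4 markers of lymphocytes and plasma cells averaged 2.08, 1.00 and 1.05 against 3.30, 4.99 and 5.28, with summed levels of 3.98 to 8.33 and 13.2 to 21.1, and their part was not tested. Id2, an inhibitor of transcription factors that many immune cells also make, read 6.08, 6.23 and 6.56 against 6.48, 7.39 and 7.71, a difference of -0.90 (SE 0.35). Porcn, the enzyme that attaches the lipid to Wnt proteins, read 1.83, 2.12 and 3.29 against 2.34, 3.56 and 2.69, a difference of -0.45 (SE 0.49).

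Gsk3b, the kinase that marks beta-catenin for destruction, and Ccnd1, a cyclin and reported target, were named after their values were seen. Gsk3b read 7.06, 7.05 and 7.47 against 6.27, 6.75 and 6.79, a difference of 0.59 (SE 0.21). Ccnd1 read 7.99, 8.13 and 8.05 against 7.74, 7.40 and 7.80, a difference of 0.41 (SE 0.15). Its dimmer probe sets gave 1.01 (SE 0.29) without overlap and 0.82 (SE 0.33) with overlap. In both genes the groups did not overlap on the probe set used, and neither gene passed over all genes. Ctnnb1, the gene of beta-catenin, stayed between 10.85 and 11.01 on the probe set used, a difference of 0.05 (SE 0.10). A second probe set, with a mean of 7.17, gave 0.006 (SE 0.28). The dimmest, with a mean of 3.54, gave 1.84 (SE 0.76) without overlap. There EGFP-positive replicate 1 read 3.29 and EGFP-negative replicate 3 read 3.24. Wls, which carries Wnt proteins to the cell surface, had a difference of 0.08 (SE 0.29).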

How the data were processed

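Sorted colonic myenteric cells of 6 libraries, 3 per label, were profiled on arrays. The authors deposited 1 log2 value per array for each probe set, and the submitters' processing notes name RMA. Its version is not given in the sources used here, and the log2 scale was read from the values (0.05 to 15.2). Column medians of 1.91 to 1.99 and unequal upper quartiles (4.08 to 4.86) are unusual for RMA, so dim values are read with caution. Both the number of arrays and dim probe sets limit what can be read.

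Symbols came from the platform annotation, and all 48 members' symbols matched RefSeq through their gene IDs. Control probe sets and those with several symbols or none were left out. All 18193 genes were fitted with limma 3.58.1 in R 4.3.3 (lmFit, eBayes, two-sided, Benjamini-Hochberg). The fit was run on simulated data, where no gene was given more than the median spread and no replicate effect was included. That check does not show how well the fit recovers differences at the spread of these data. Figures used matplotlib 3.10.9. P-values measure the spread between libraries that each pool mice.

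Deviations from group means correlated at 0.36, 0.32 and 0.42 between libraries of the same number (across genes, which are not independent replicates). Between different numbers they correlated at -0.01 or below. Deviations cancel within each group, so positive same-number values push the others down, and the latter are not separate evidence. From the same-number values, not from a statement in the labels, the numbers were taken to pair the libraries. The blocked fit is given where it moves a count.

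Full values were given for the member with the highest mean of each family, the 12 largest differences, and members without overlap and a difference of at least 0.5. Members, lists and rule were chosen with earlier results of these data known. Alternatives covered scaling, probe sets, a filter on dim genes, variances, array weights, the block and left-out libraries.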

Additional observations from a re-analysis of the deposited data

How the results depend on the processing

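Over all genes 0 passed under any alternative but 1, without EGFP-positive replicate 1, where Ccr2 and Fermt3 did. No alternative brought a member or a pathway gene past an adjusted p of 0.05, and over the 24 genes named by rule the lowest value was 0.107 (limma, Benjamini-Hochberg), for Rspo2 without EGFP-positive replicates 1 and 2. That setting leaves EGFP-positive replicate 3 as 1 library assumed to vary like the others. It is the only library above background on the Rspo2 probe set used. Under the 12 settings that can move these 24 differences, 262 of 288 values kept their sign and 26 did not, and 14 genes kept it throughout. The replicate block changed no call at adjusted p 0.05, and with it the lowest adjusted p of a member was 0.661. Dim probe sets and 3 arrays per label limit what can be read.

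Members without overlap and with a difference of at least 1 numbered 1 higher (0.803% of all genes) and 0 lower (1.5%). With centring on ribosomal protein genes 3 were higher, but the share of all genes also rose, to 2.34%. With the mean of all probe sets 2 were higher, Sfrp1 and Sfrp5 (0.588% of all genes). Leaving out single libraries gave 1 to 3 higher (1.01% to 1.51% of all genes) and 0 to 1 lower (1.5% to 2.86%). Without EGFP-positive replicates 1 and 2 there were 7 higher (6.48% of all genes) and 3 lower (5.67%), where fewer samples make overlap less likely. For pathway genes these counts were 1 and 0, 2 higher with ribosomal centring, 1 to 3 higher and 0 to 3 lower without single libraries, and 11 and 2 without EGFP-positive replicates 1 and 2. The shares of all genes given above are for the same settings and apply to these pathway counts as well. The members' median difference was 0.31 with ribosomal centring, which moved the median of all genes by 0.35. With the mean of all probe sets 1 member, not 6, was at or above 6 in all libraries.

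Signs turned as follows, and beyond the shift of all values by ribosomal centring and the removal of samples the cause was not tested. With ribosomal centring Dkk3 was 0.27 and Rspo1 0.22, with all probe sets Dkk3 was 0.16, with median centring Fzd1 was -0.0084, and with array weights Fzd1 was -0.18, Lrp6 -0.10 and Rspo1 0.37. Without EGFP-positive replicates 1 and 2, Dkk3 was 0.42, Fzd1 -0.038, Fzd6 -0.40, Rspo3 0.52, Wnt5a -0.32 and Porcn 0.42. Without single libraries, differences ran from -0.045 to 0.75 for Axin2, -0.40 to 0.13 for Dkk3, -0.23 to 0.34 for Fzd1, -0.51 to 0.71 for Lrp6, -0.78 to 0.69 for Rspo1, -0.17 to 1.23 for Rspo2, -1.08 to 0.43 for Rspo3 and -0.13 to 0.38 for Wnt5a.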
